A study of Mus musculus with 12 samples.

Results

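The cytoskeletal target genes of serum response factor (SRF) were followed as a set of 10 genes, *Vcl*, *Actb*, *Actg1*, *Tpm1*, *Tpm4*, *Myh9*, *Flna*, *Zyx*, *Cnn2* and *Fhl2*, taken by symbol from a table of read counts over 16234 genes. All 10 members were in the table and passed the filter on low counts, which 12208 genes passed. RNA was sequenced from bone marrow-derived mast cells (BMMCs), which are mast cells grown out of mouse bone marrow, here for 4 to 8 weeks with IL-3 and SCF, until more than 80% of cells carried both CD117 and FcϵRI. The 12 libraries form 6 groups of 2, which the labels call *Elk4* wild type (WT), knockout (KO) or heterozygous (HZ), and within each genotype untreated, here called unstimulated, or stimulated. Stimulated cells were loaded overnight with 0.5 µg/ml anti-DNP IgE and then received 100 ng/ml of the antigen DNP-HSA for 1 h, which crosslinks the high-affinity IgE receptor FcϵRI. The mice carried a conventional *Elk4* deletion, present in every cell type, on a C57BL/6N background, were of both sexes and 6 to 12 weeks old, and the WT mice were littermates. The labels do not say how many mice or cultures the replicate libraries came from, so p-values measure the spread between these libraries, which may be technical.

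*Elk4*, the targeted gene, was counted in every library, those labelled KO included, and was lowest in KO and highest in HZ before stimulation. Its normalised read counts (CPM, scaled to library sizes with edgeR's TMM factors) were 73.2 and 78.3 in unstimulated libraries labelled WT, 93.2 and 86.01 in HZ, with 69.7 and 63.5 in KO, and after stimulation 78.2 and 66.98 in WT, 65.2 and 63.7 in HZ, with 67.1 and 68.5 in KO. The unstimulated difference of KO from WT was -0.19 (SE 0.0592, adjusted p = 0.00872) on the log2 scale and that of HZ from WT 0.24 (SE 0.0584, adjusted p = 4.84e-04). The deleted stretch is not given in the sources used here, so a count over the whole gene cannot test the deletion, and WT, HZ and KO below stand for libraries labelled so.

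SRF is a transcription factor that binds the CArG box, a short AT-rich element, and it takes its signals through partner proteins. The ternary complex factors ELK1, ELK3 and ELK4 are phosphorylated by MAP kinases and are known for switching on immediate-early genes such as *Fos* and the Egr family. The myocardin-related factors MRTFA and MRTFB are held back by monomeric actin and are known for driving genes of the actin cytoskeleton, the actin genes among them. Mast cells reshape their actin cortex when FcϵRI is crosslinked and granules are released.

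A CArG box was present in a promoter window, from 250 bases before to 50 bases after an annotated start, of 4 of the 9 members that have a window in RefSeq (assembly GRCm38.p6, whereas the count table was made on GRCm39). Of the 12777 genes of the count table with a window, 203 (1.59%) held a box in any of their windows. Counted by single window, 1.63% of all 32851 windows of the same length held one. The members were chosen as SRF targets, so their share is a property of the choice. The search pattern of the box is the same on both strands, though a single box need not be, and was matched without mismatches. The stretches around the boxes are shown because they carry the shared element, 5′ to 3′ on the gene's strand and wholly before the start, with the box in capitals.
Vcl: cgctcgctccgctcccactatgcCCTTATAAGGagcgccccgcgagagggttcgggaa
Actg1: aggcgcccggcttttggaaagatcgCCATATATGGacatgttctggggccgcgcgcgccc
Cnn2: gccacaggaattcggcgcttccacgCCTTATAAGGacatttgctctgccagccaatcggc
Fhl2 upstream start: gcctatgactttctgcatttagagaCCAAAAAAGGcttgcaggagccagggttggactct
Fhl2 downstream start: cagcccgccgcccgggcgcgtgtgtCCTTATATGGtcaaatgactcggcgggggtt
In that order they lie at chr14:20929148-20929205, plus strand, chr11:120348551-120348610, minus strand, chr10:79988519-79988578, plus strand, chr1:43196823-43196882, minus strand and chr1:43163962-43164017, minus strand, in GRCm38.p6 coordinates. The box of *Vcl* began 227 bases before the start, that of *Actg1* 90, that of *Cnn2* 56, and those of the 2 annotated starts of *Fhl2* 96 and 31. *Vcl* and *Cnn2* carried the identical box. The windows of *Tpm1*, *Tpm4*, *Myh9*, *Flna* and *Zyx* held no such letters, and *Actb* was not matched to a window. The window of *Srf* itself held 2 boxes.

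Per unit of gene length the members spanned more than 3 orders of magnitude. In the FPKM values, which are counts scaled by gene length and library total, *Actb*, encoding cytoplasmic beta-actin, lay between 1884 and 2862 and ranked between 7 and 13 among all genes of a library. It took 0.362% to 0.550% of all counts of a library. *Actg1*, the gamma-actin gene, followed with 906 to 1645 FPKM, and *Myh9*, the heavy chain of non-muscle myosin IIA, with 149 to 234. Next were *Zyx* at 79.6 to 112 and *Cnn2* at 65.1 to 142, whose ranges overlapped, as did those of *Flna* (34.1 to 65.5) and *Vcl* (35.02 to 60.1). *Tpm1* lay between 22.7 and 30.3 FPKM, *Fhl2* between 2.95 and 18.3 and *Tpm4* between 0.737 and 6.45. The low members *Fhl2* and *Tpm4* rested on 175 to 1054 and 55 to 409 counts per library, and their changes carry the largest errors below.

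*Myh9*, *Cnn2* and *Zyx* were each the main gene of their protein family in these cells. *Myh9* made up 98.4% to 99.5% of the summed FPKM of the non-muscle myosin II heavy chains *Myh9*, *Myh10* and *Myh14*. *Cnn2* made up 99.8% to 100.0% of the calponins, and *Zyx* 96.5% to 97.7% of itself with *Lpp* and *Trip6*. Among the tropomyosins *Tpm3*, which is no member, held 58.1% to 81.4%. These families were picked after the values were seen. Reads of near-identical copies are uncertain: of all 50-base stretches of the longest coding GENCODE transcript of *Actg1*, 56.7% also occur in transcripts of other genes, mostly processed copies, against 14.2% for *Actb*, 12.1% for *Tpm4* and 1.12% for *Myh9*. *Vcl*, *Tpm1*, *Flna*, *Zyx*, *Cnn2* and *Fhl2* shared none.

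The libraries held 29697958 to 35531667 counts. The mast cell label was borne out by its markers: the 11 markers in the table summed to 46884 to 57579 CPM in each library. Markers of fibroblasts and smooth muscle, cells rich in the members, summed to at most 1.21 CPM over the 7 of 11 in the table, with *Des* at 0 in 5 of the 6 groups. The 8 macrophage markers summed to at most 21.1 CPM, the 6 neutrophil markers to at most 0.269 and the 3 B and T cell markers to at most 0.0695. The 5 megakaryocyte and platelet markers summed to 1864 to 2851 CPM, nearly all of it *Itga2b* and *Gp1ba*, with *Pf4* at or near 0. The 3 basophil markers summed to 465 to 674 CPM, nearly all of it *Cd200r3*, while the group means of *Mcpt8* and *Prss34* were at most 10.88 and 1.322 CPM. The last 2 sums were highest in unstimulated HZ, and their part in the results was not tested. In bulk RNA, a smaller share of cells of a type and less RNA per cell cannot be told apart.

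**Figure D1:**
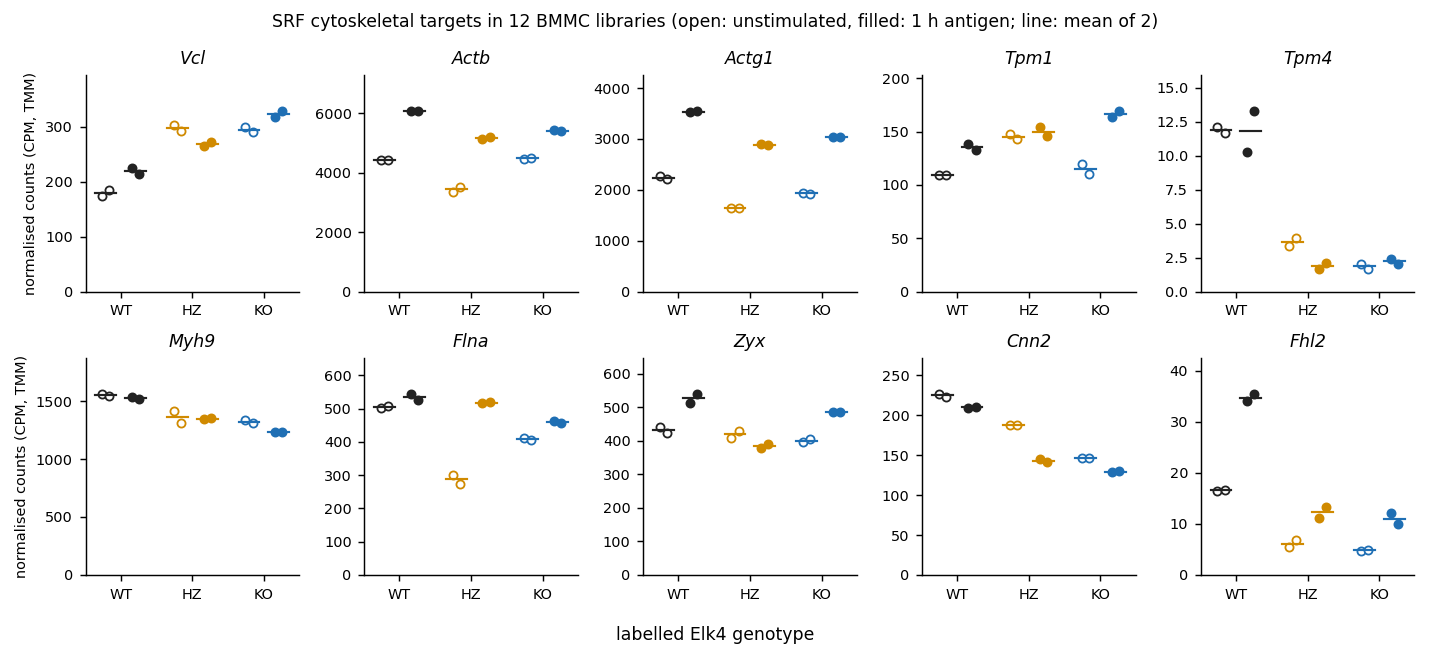
TMM-scaled CPM (vertical axes, from 0) of the 10 members in the 12 libraries, by labelled genotype. Open points are unstimulated and filled points stimulated libraries, and each line is the mean of 2. Replicates lie close together, *Fhl2* and *Tpm4* sit lower in HZ and KO than in WT, *Vcl* sits higher, and *Actb*, *Actg1* and *Fhl2* are higher after stimulation in every genotype on this TMM scale, which *Actb* in KO was not on library totals.

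The first comparison asked which members differed between stimulated and untreated cells. Whether the untreated cells were also loaded with IgE is not stated, so overnight IgE and 1 h of antigen cannot be told apart. In WT, 7 members were higher and 1 was lower after stimulation, which here and below means an adjusted p under 0.05 (edgeR quasi-likelihood fit, Benjamini-Hochberg over every gene tested). Of all genes, 22.4% were higher and 22.9% lower. In HZ, 4 were higher and 4 lower (background 32.9% and 31.6%), and in KO 7 rose and 2 fell (background 20.4% and 20.5%). The members had a median of 0.28, against -0.013 for every gene tested in WT (log2), of 0.017, against -0.0048 for every gene tested in HZ and of 0.27, against -0.0068 for every gene tested in KO. *Fhl2* alone reached a 2-fold change, in each genotype, which 6.77%, 14.3% and 6.61% of all genes did in WT, HZ and KO.

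These directions depend on how libraries are scaled. TMM sets the median change of all genes near 0, whereas scaling by library totals moved that median to -0.32 in WT, -0.24 in HZ and -0.30 in KO, and the members' counts to 3 higher and 3 lower (WT), 4 higher and 6 lower (HZ) and 3 higher and 4 lower (KO). On library totals 6.90% of all genes were higher and 60.6% lower in WT, 20.0% and 48.3% in HZ, with 7.03% and 59.8% in KO. The values below are relative to the bulk of genes. *Fhl2* and *Actg1* in every genotype, *Actb* in WT and HZ, *Flna* in HZ and *Tpm1* in KO were higher under both scalings, and *Cnn2* was lower in every genotype under both.

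Of the actins, the building blocks of the filaments, *Actg1* rose in every genotype and *Actb* in WT and HZ under both scalings, while in KO *Actb* rose with TMM but not on library totals. *Actb* was at 4419.7 and 4417 CPM in unstimulated and 6076 and 6084 in stimulated WT libraries, at 3343 and 3534 and then 5119.7 and 5202 in HZ, and at 4455 and 4501 and then 5424 and 5400.1 in KO. Within each genotype all stimulated libraries lay above all unstimulated ones, and unstimulated HZ was the lowest group. The log2 fold change was 0.46 (SE 0.0198, adjusted p = 5.36e-25) in WT, 0.59 (SE 0.0199, adjusted p = 2.26e-29) in HZ and 0.27 (SE 0.0198, adjusted p = 2.36e-16) in KO, where library totals gave -0.016 instead.
*Actg1* changed more: from 2265 and 2216 to 3521 and 3556 CPM in WT, from 1634 and 1644 to 2901 and 2878 in HZ and from 1946 and 1911 to 3037 and 3031 in KO. No stimulated library came near the unstimulated range of its genotype. The log2 fold change was 0.66 (SE 0.0206, adjusted p = 1.01e-30) in WT, 0.82 (SE 0.0207, adjusted p = 1.23e-34) in HZ and 0.65 (SE 0.0206, adjusted p = 1.38e-30) in KO, and library totals gave 0.35, 0.59 and 0.37.
The FPKM ratio of *Actg1* to *Actb* needs no scaling between libraries. As a percentage it was 50.4 and 49.3 in unstimulated WT and 56.97 and 57.5 in stimulated WT, 48.1 and 45.7 and then 55.7 and 54.4 in HZ, and 42.9 and 41.7 and then 55.05 and 55.2 in KO. It has no test of its own. It was higher in each stimulated library than in any unstimulated one, lowest in unstimulated KO, and between 54.4 and 57.5 after stimulation in all genotypes.

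*Fhl2*, a LIM-domain protein that binds SRF and other transcription factors, showed the largest rise among the members. Its CPM values were 16.4 and 16.6 before and 33.96 and 35.4 after stimulation in WT, 5.44 and 6.76, then 11.2 and 13.4 in HZ, and 4.67 and 4.96, then 12.04 and 9.90 in KO. All stimulated libraries lay above the unstimulated ones of their genotype, and the stimulated HZ and KO libraries stayed below the unstimulated WT libraries. The fold was 2.10 in WT, 2.01 in HZ and 2.28 in KO, with log2 fold changes of 1.07 (SE 0.112, adjusted p = 3.00e-11), 1.01 (SE 0.132, adjusted p = 5.06e-09) and 1.19 (SE 0.137, adjusted p = 5.41e-10). The 95% interval of the difference in response was -0.24 to 0.47 for KO minus WT and -0.41 to 0.29 for HZ minus WT.

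**Figure D2:**
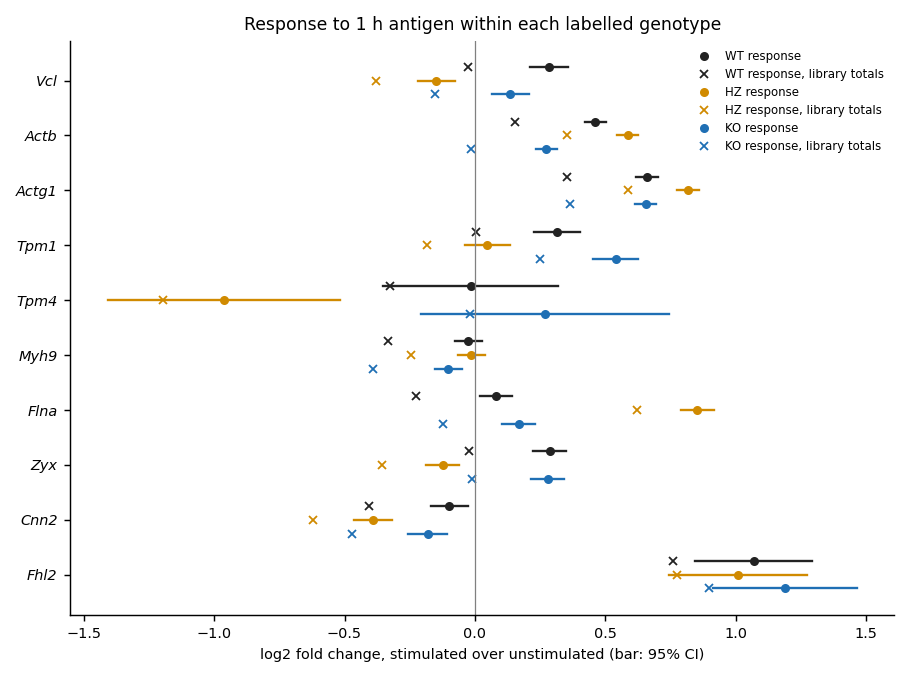
Log2 fold change of each member, stimulated over unstimulated (horizontal axis), within WT, HZ and KO. Filled points are edgeR estimates on TMM-scaled counts with their 95% confidence interval (CI), and crosses are the estimates on library totals, which lie to the left throughout. *Fhl2* and *Actg1* are right of 0 under both scalings in all genotypes and *Flna* lies further right in HZ than in WT or KO.

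Most remaining members encode proteins that organise filaments, and their direction differed between genotypes or genes. *Vcl* encodes vinculin, which links integrin adhesions to actin. It rose by 0.28 (SE 0.0364, adjusted p = 7.94e-09) on the log2 scale in WT and by 0.14 (SE 0.0351, adjusted p = 0.00145) in KO, where library totals turned both to -0.025 and -0.15, and fell in HZ, with -0.15 (SE 0.0353, adjusted p = 2.94e-04). Without KO stimulated replicate 2 the KO rise was 0.11 (adjusted p = 0.0506).
*Zyx* encodes zyxin, a LIM protein of focal adhesions and stress fibres. It was at 441 and 422 CPM before and 513 and 539 after stimulation in WT, 409.6 and 429.6, then 379 and 391 in HZ and 397 and 404, then 484 and 486 in KO. WT and KO libraries moved up and HZ libraries down without overlap: the log2 fold change was 0.29 in WT and 0.28 in KO, with library totals near 0 at -0.022 and -0.011, and -0.12 in HZ (adjusted p = 9.49e-11, 2.33e-10 and 5.74e-04).
*Tpm1*, a tropomyosin that coats filaments, was at 109 and 109 CPM before and 139 and 133 after stimulation in WT, at 148 and 143 and then 154 and 146 in HZ, and at 119 and 110.4 and then 164 and 169.7 in KO. The libraries of WT and KO separated by state and those of HZ overlapped. *Tpm1* rose by 0.54 (SE 0.0428, adjusted p = 5.94e-15) in KO and by 0.31 (SE 0.0435, adjusted p = 4.48e-08) in WT, where library totals gave 0.0058. In HZ its change was 0.048 with a 95% interval of -0.038 to 0.13, and -0.18 on library totals. *Tpm4* fell in HZ, with -0.96 (SE 0.221, adjusted p = 1.75e-04), and its intervals in WT (-0.35 to 0.32) and KO (-0.21 to 0.74) were wide.
*Cnn2* encodes calponin 2, an actin-binding protein that dampens myosin activity. It fell in HZ, with -0.39 (SE 0.0365, adjusted p = 4.62e-13), and in KO, with -0.18 (SE 0.0373, adjusted p = 8.76e-05). In WT the change was -0.10 (SE 0.0356, adjusted p = 0.0205), which missed the threshold when any 1 of the 4 WT libraries was left out, with adjusted p between 0.0598 and 0.119. *Myh9* fell in KO, with -0.10 (SE 0.0257, adjusted p = 9.49e-04), whereas the intervals of its change were -0.078 to 0.025 in WT and -0.066 to 0.037 in HZ, and on library totals *Myh9* fell in each genotype, with -0.33 in WT, -0.25 in HZ and -0.39 in KO.

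*Flna* encodes filamin A, which crosslinks actin filaments into networks and ties them to membrane receptors. In WT it stood at 502 and 509 CPM before and 544 and 526 after stimulation, in KO at 413 and 407 and then 463 and 458, and in HZ at 299 and 275 and then 516 and 521. The unstimulated HZ libraries were far below all others, and stimulated HZ lay just under stimulated WT. The response in HZ was 0.85 (SE 0.0316, adjusted p = 9.74e-28) against 0.17 (SE 0.0313, adjusted p = 1.71e-05) in KO and 0.081 (SE 0.0310, adjusted p = 0.0296) in WT, of which library totals turned the last 2 to -0.12 and -0.23. The WT value missed the threshold without WT unstimulated replicate 1, at 0.071 (adjusted p = 0.141), and without WT stimulated replicate 1, at 0.057 (adjusted p = 0.259).

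*Actb* is widely used as the reference gene of quantitative PCR, so its change was set beside those of 11 other reference genes. With TMM, 9 of the 11 rose and 0 fell in WT, with a median log2 fold change of 0.22, in HZ 8 rose and 2 fell (0.43), and in KO 6 rose (0.10), whereas library totals gave 2 higher and 5 lower in WT, 6 higher and 3 lower in HZ, and 1 higher and 8 lower in KO, with medians of -0.090, 0.20 and -0.19. With TMM, 22.4% of all genes were higher and 22.9% lower in WT, 32.9% and 31.6% in HZ, with 20.4% and 20.5% in KO. On library totals these shares were 6.9% and 60.6% in WT, 20% and 48.3% in HZ, with 7.03% and 59.8% in KO. *Actb* was above the median of the 11 reference genes in each genotype. *Gapdh*, a glycolytic enzyme, had log2 fold changes of 0.37, 0.52 and 0.28 in WT, HZ and KO, and *Tfrc*, the transferrin receptor, had 0.73, 1.72 and 0.45. Those of *Gusb*, a lysosomal enzyme, were 0.16, 0.20 and 0.10, of *Sdha*, a subunit of succinate dehydrogenase, -0.0019, 0.17 and -0.051, and of *Tbp*, the TATA-binding protein, -0.22, -0.15 and -0.16, where *Sdha* passed in HZ and *Tbp* in no genotype. Between unstimulated genotypes *Actb* was -0.36 in HZ and 0.019 in KO relative to WT, with adjusted p = 7.96e-21 and 0.452.

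**Figure D3:**
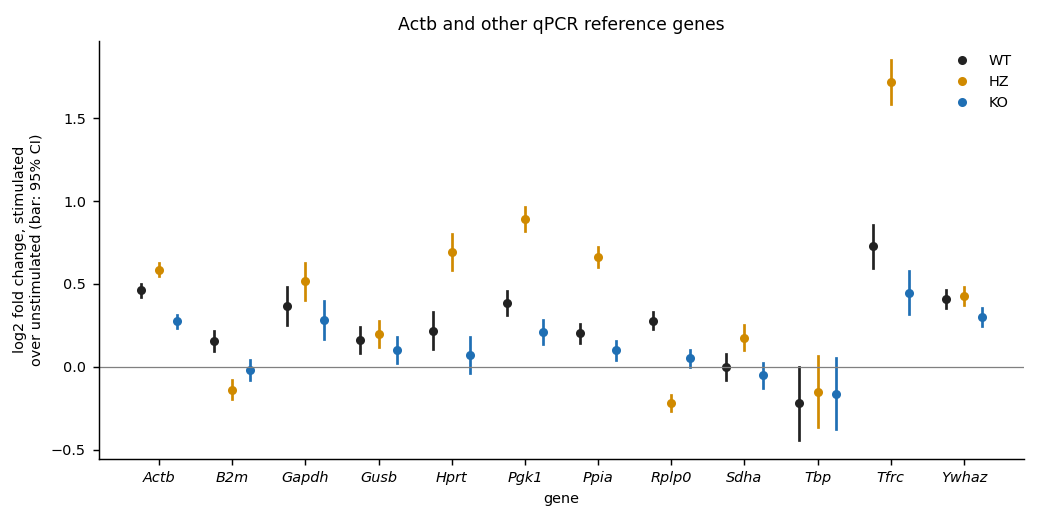
Log2 fold change, stimulated over unstimulated (vertical axis, bars 95% CI), of *Actb* and 11 other reference genes of quantitative PCR within WT, HZ and KO, on TMM-scaled counts. *Actb* lies above 0 in all genotypes, in KO not so on library totals, and the genotypes are spread most widely for *Tfrc*.

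The second comparison asked how the members differed between the labelled genotypes before stimulation. Relative to WT, 7 members were lower and 1 was higher in KO, against 21.7% lower and 22.9% higher of all genes. In HZ 7 were lower and 2 higher, against 26% and 25.4%. The members' median on the log2 scale was -0.22, against 0.018 for every gene tested, for KO, and -0.31, against 0.0018 for every gene tested, for HZ. A 2-fold difference was reached by *Tpm4* and *Fhl2* in both, and by 7.51% of all genes in KO and 9.15% in HZ. Between KO and HZ 3 members were higher in KO and 3 lower (background 23.4% and 21.8%), and none differed 2-fold, as 3.36% of all genes did. After stimulation 8 members were lower and 2 higher in KO than in WT (background 19.2% and 21.2%), and 7 and 2 in HZ (background 16.5% and 18.4%). A difference of 1.5-fold was reached by 3 members in KO and 2 in HZ, and by 12.8% and 8.01% of all genes. Between stimulated KO and HZ 5 were higher and 3 lower in KO (background 12.9% and 12%), none by 1.5-fold against 5.41% of all genes. HZ and KO were compared with the same WT libraries, so the HZ and KO values share those controls.

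**Figure D4:**
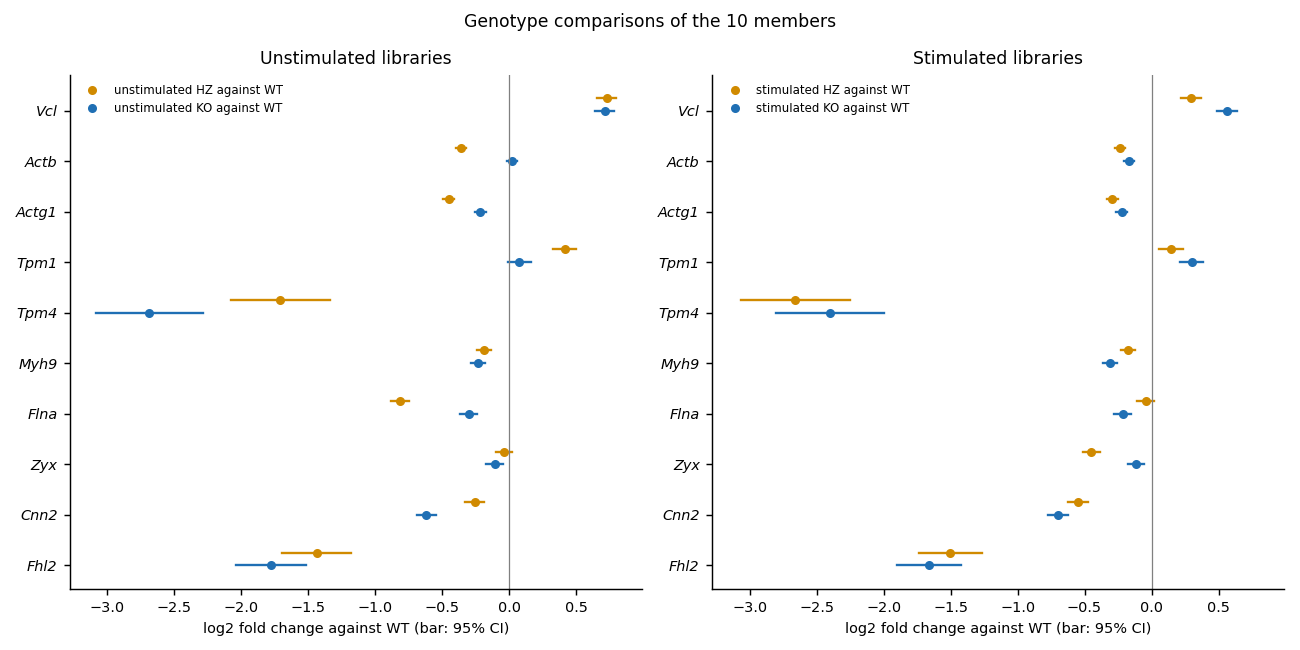
Log2 fold change of each member in HZ and KO against WT (horizontal axes, bars 95% CI), in unstimulated (left) and stimulated (right) libraries. *Tpm4* and *Fhl2* lie far left of 0 and *Vcl* right of 0 in both states, and *Flna* is far left in unstimulated HZ and near 0 in stimulated HZ.

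*Vcl* was the member most clearly higher in HZ and KO. Its CPM values were 175 and 186 in unstimulated WT, 303 and 293 in HZ, with 299.6 and 290.0 in KO, and after stimulation 225 and 213 in WT, 265 and 273 in HZ, with 319 and 329 in KO. Every HZ and KO library lay above every WT library in both states. Unstimulated, the log2 difference from WT was 0.73 (SE 0.0359, adjusted p = 1.75e-22) in HZ and 0.71 (SE 0.0358, adjusted p = 5.49e-22) in KO, or 1.65-fold and 1.64-fold. Stimulated, it was 0.29 (SE 0.0359, adjusted p = 3.44e-09) in HZ and 0.56 (SE 0.0358, adjusted p = 3.73e-18) in KO. Unstimulated KO and HZ differed by -0.015, with a 95% interval of -0.085 to 0.055. Stimulated KO was above HZ by 0.27 (SE 0.0354, adjusted p = 3.87e-08).

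*Fhl2* was lower in HZ and KO in both states. Its raw counts were 545 and 581 in unstimulated WT, 189 and 223 in HZ, with 175 and 176 in KO, and 1009 and 1054 in WT, 367 and 395 in HZ, with 335 and 285 in KO after stimulation. The unstimulated log2 difference from WT was -1.44 (SE 0.128, adjusted p = 1.57e-13) in HZ and -1.78 (SE 0.131, adjusted p = 4.34e-16) in KO, which is 2.71-fold and 3.43-fold lower. After stimulation it was -1.50 (SE 0.116, adjusted p = 4.71e-15) and -1.66 (SE 0.118, adjusted p = 1.70e-16). KO and HZ did not overlap unstimulated but differed by -0.34 (SE 0.144, adjusted p = 0.0502), which missed the threshold. This difference passed in other settings, among them without HZ unstimulated replicate 1, at -0.49 (adjusted p = 0.0174). After stimulation their libraries overlapped.
*Cnn2* showed a graded order. It was at 226 and 223 CPM in unstimulated WT, 188 and 188 in HZ, with 146 and 147 in KO, and at 209 and 211 in WT, 145 and 142 in HZ, with 129 and 129.7 in KO after stimulation. WT was highest and KO lowest in either state, with no overlap between neighbours. The log2 difference of KO from WT was -0.62 (SE 0.0359, adjusted p = 1.06e-19) unstimulated and -0.70 (SE 0.0371, adjusted p = 4.19e-21) stimulated, and that of KO from HZ -0.36 (SE 0.0362, adjusted p = 1.13e-11) and -0.15 (SE 0.0377, adjusted p = 0.00187).
*Myh9*, whose product gives the cortex its contractile force, was at 1559.7 and 1545 CPM in unstimulated WT, 1413 and 1307 in HZ, with 1334 and 1309 in KO, and at 1531 and 1517 in WT, 1341 and 1353 in HZ, with 1232 and 1229 in KO after stimulation. WT libraries were above all others in both states, and the unstimulated HZ and KO libraries overlapped. The differences from WT were small, -0.19 (SE 0.0256, adjusted p = 1.63e-08) in HZ and -0.23 (SE 0.0256, adjusted p = 1.44e-10) in KO unstimulated, and -0.18 and -0.31 stimulated.

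*Tpm4* differed most between the labelled genotypes. Its raw counts were 402 and 409 in unstimulated and 305 and 396 in stimulated WT libraries, 116 and 130, then 55 and 61 in HZ, and 77 and 58, then 67 and 59 in KO. Even the lowest WT library was above the highest HZ or KO library. The unstimulated log2 difference from WT was -1.71 (SE 0.183, adjusted p = 4.05e-11) in HZ and -2.69 (SE 0.198, adjusted p = 4.73e-16) in KO, and the stimulated one -2.66 (SE 0.203, adjusted p = 3.59e-15) and -2.40 (SE 0.201, adjusted p = 3.87e-14), between 3.27-fold and 6.44-fold lower. Unstimulated KO was also below HZ, with -0.98 (SE 0.215, adjusted p = 1.85e-04).
*Tpm3*, a further tropomyosin gene from the list of other MRTF and SRF targets, was higher where *Tpm4* was lower. It stood at 41.02 and 43.5 FPKM in unstimulated WT, 87.3 and 88.3 in HZ, with 104 and 105 in KO, and at 39.1 and 40.8 in WT, 104 and 103 in HZ, with 102 and 102 in KO after stimulation. Its unstimulated log2 difference from WT was 1.10 (SE 0.0300, adjusted p = 9.12e-33) in HZ and 1.33 (SE 0.0299, adjusted p = 6.99e-36) in KO, and 1.35 and 1.35 after stimulation. *Tpm1* was also higher than WT in unstimulated HZ, by 0.41 (SE 0.0430, adjusted p = 2.11e-11), and in stimulated KO, by 0.30 (SE 0.0429, adjusted p = 1.13e-07), while in unstimulated KO the interval was -0.013 to 0.16, and the difference passed without KO unstimulated replicate 2, at 0.13 (adjusted p = 0.0428).
The tropomyosin genes together came to 70.5 and 73.1 FPKM in unstimulated WT, 119.6 and 119.9 in HZ, with 130.3 and 129 in KO. *Tpm4* made up 9.14 and 8.55% of this sum in unstimulated WT, 1.44 and 1.69% in HZ, with 0.828 and 0.662% in KO, and *Tpm3* 58.1 and 59.5% in WT, 72.96 and 73.7% in HZ, with 79.5 and 81.4% in KO. The sum was thus higher in HZ and KO while the share of *Tpm4* was lower, and these shares have no test of their own. Sequence shared with other genes was counted for the members only, so not for *Tpm3*. The stimulated difference of *Tpm1* between HZ and WT, 0.15 (SE 0.0429, adjusted p = 0.00624), missed the threshold without WT stimulated replicate 2 (adjusted p = 0.0951) and without HZ stimulated replicate 1 (adjusted p = 0.121).

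**Figure D5:**
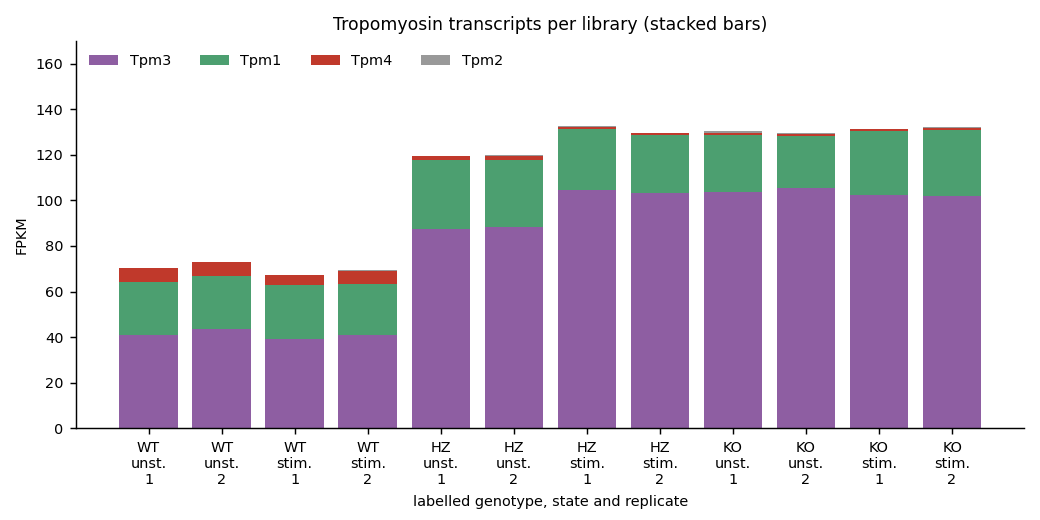
FPKM of the tropomyosin genes (vertical axis, stacked bars from 0) in each of the 12 libraries, by labelled genotype, state and replicate. The stacks are taller in HZ and KO than in WT through *Tpm3*, and the *Tpm4* layer is visible mainly in WT.

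The actins and *Flna* differed between HZ and KO before stimulation, and *Zyx* after it, when *Flna* differed in the opposite direction. Unstimulated, *Actg1* was lower than WT, with -0.45 (SE 0.0206, adjusted p = 8.72e-24) in HZ and -0.22 (SE 0.0205, adjusted p = 1.83e-12) in KO, and KO stood above HZ by 0.23 (SE 0.0206, adjusted p = 2.13e-13). *Actb* was -0.36 (SE 0.0198, adjusted p = 7.96e-21) in HZ, while in KO its interval was -0.020 to 0.059. After stimulation both actins were lower than WT in both genotypes, *Actb* with -0.24 (SE 0.0198, adjusted p = 6.63e-14) in HZ and -0.17 (SE 0.0198, adjusted p = 9.61e-10) in KO, and *Actg1* with -0.29 (SE 0.0205, adjusted p = 1.90e-16) and -0.22 (SE 0.0205, adjusted p = 8.90e-13). *Flna* was -0.82 (SE 0.0316, adjusted p = 1.43e-26) in HZ, or 1.76-fold lower, and -0.30 (SE 0.0310, adjusted p = 1.69e-11) in KO, a difference between KO and HZ of 0.51 (SE 0.0316, adjusted p = 1.68e-18). After stimulation *Flna* in HZ was within -0.11 to 0.018 of WT on the log2 scale (95% interval), and in KO -0.22 (SE 0.0312, adjusted p = 1.28e-07). Its difference of KO from HZ was then -0.17 (SE 0.0312, adjusted p = 2.24e-05).
*Zyx* did not pass in unstimulated HZ against WT, with an interval of -0.10 to 0.023, and it was -0.45 (SE 0.0313, adjusted p = 1.46e-16) in stimulated HZ. Between KO and HZ it was -0.068 (SE 0.0312, adjusted p = 0.0696) unstimulated and 0.33 (SE 0.0314, adjusted p = 4.97e-12) stimulated. In KO it was -0.11 (SE 0.0311, adjusted p = 0.00363) unstimulated and -0.12 (SE 0.0311, adjusted p = 0.00220) stimulated. The unstimulated KO value missed the threshold without WT unstimulated replicate 1 (adjusted p = 0.116) or KO unstimulated replicate 1 (0.0508), and the stimulated value without WT stimulated replicate 2 (0.115). The small stimulated differences of KO over HZ in *Actb* (0.069), *Actg1* (0.071) and *Tpm1* (0.15) also depended on single libraries. That of *Actb* missed the threshold without HZ stimulated replicate 1 (adjusted p = 0.104) or KO stimulated replicate 1 (0.0700), that of *Actg1* without HZ stimulated replicate 2 (0.0748), KO stimulated replicate 1 (0.0689) or KO stimulated replicate 2 (0.0602), and that of *Tpm1* without HZ stimulated replicate 2 (0.126) or KO stimulated replicate 2 (0.0945).
Immediate-early genes also differed between the groups before antigen. Of 16 immediate-early genes known as targets of ternary complex factors, 14 were lower and 1 was higher in unstimulated HZ than in WT (median -1.57), and 12 and 1 in KO (median -0.78). Of all genes tested, 26% were lower and 25.4% higher in HZ (median 0.0018), and 21.7% and 22.9% in KO (median 0.018). *Nr4a1*, an orphan nuclear receptor, was at 325 and 324 CPM in unstimulated WT, 32.4 and 30.8 in HZ, with 121 and 126 in KO, and *Egr2*, a zinc-finger factor, at 265 and 251 in WT, 20.8 and 22.95 in HZ, with 73.6 and 69.2 in KO. *Flna*, *Actb* and *Actg1* were lowest in the same group, unstimulated HZ, and the part of this difference in their values was not tested.

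The third comparison tested whether the response itself differed between genotypes, as an interaction in the same model. For KO minus WT, 1 member was higher and 1 lower, against 5.44% and 3.83% of all genes, and for HZ minus WT 3 and 5, against 19.9% and 18.6%. The median of the members was -0.0064, against -0.0050 for every gene tested for KO and -0.16, against 0.0059 for every gene tested for HZ. *Actb* responded less in KO than in WT, with -0.19 (SE 0.0280, adjusted p = 2.32e-06), and *Tpm1* more, with 0.22 (SE 0.0610, adjusted p = 0.0116). The *Tpm1* difference missed the threshold without WT unstimulated replicate 2 (adjusted p = 0.0787), WT stimulated replicate 2 (0.0824), KO unstimulated replicate 2 (0.143) or KO stimulated replicate 2 (0.0766). The remaining 8 members did not pass, with 95% intervals such as -0.064 to 0.053 for *Actg1*, -0.10 to 0.081 for *Zyx* and -0.0013 to 0.18 for *Flna*. For *Vcl* the difference was -0.15 (SE 0.0505, adjusted p = 0.0566). It passed in several other settings, among them a replicate block (adjusted p = 0.0458) and without WT unstimulated replicate 2 (0.00990) or WT stimulated replicate 2 (0.0342).
In HZ, *Flna* responded more than in WT, by 0.77 (SE 0.0442, adjusted p = 1.41e-19), as did *Actg1* (0.16) and *Actb* (0.13). *Tpm4*, *Vcl*, *Zyx*, *Cnn2* and *Tpm1* responded less, with -0.95 (SE 0.277, adjusted p = 0.00502), -0.43 (SE 0.0507, adjusted p = 1.12e-09), -0.41 (SE 0.0441, adjusted p = 1.04e-10), -0.29 (SE 0.0510, adjusted p = 6.29e-06) and -0.27 (SE 0.0608, adjusted p = 3.67e-04). The *Tpm4* difference had an adjusted p of 0.0545 without WT stimulated replicate 2. *Myh9* and *Fhl2* did not pass, with intervals of -0.061 to 0.085 and -0.41 to 0.29.

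SRF and its partners were measured beside their targets. *Srf* was at 101 and 101 CPM in unstimulated and 120.4 and 124 in stimulated WT libraries, 70.5 and 74.2, then 102 and 108 in HZ, and 99.3 and 108, then 125 and 119 in KO. Unstimulated HZ was lowest, -0.48 (SE 0.0488, adjusted p = 9.52e-12) against WT, and *Srf* rose with stimulation in HZ by 0.54 (SE 0.0489, adjusted p = 1.58e-13), while its changes of 0.28 in WT and 0.24 in KO became -0.031 and -0.053 on library totals. *Mrtfa*, encoding the actin-sensing partner, fell in every genotype, from 110.2 and 108 to 50.2 and 55.4 CPM in WT, 148 and 150.0 to 45.9 and 48.6 in HZ and 102 and 99.8 to 50.9 and 47.2 in KO, with log2 fold changes of -1.05 (SE 0.0527, adjusted p = 2.88e-22), -1.66 (SE 0.0526, adjusted p = 1.58e-30) and -1.04 (SE 0.0534, adjusted p = 6.41e-22). Its relative *Mrtfb* had log2 fold changes of -0.064, -0.39 and -0.18, of which the HZ value passed. Of the ternary complex factors, *Elk1* had 0.36, 0.36 and 0.30 in WT, HZ and KO, all past the threshold with TMM and none on library totals. *Elk3* had -0.11, -0.54 and -0.031, passing in HZ. *Srf*, *Mrtfa*, *Mrtfb*, *Elk1*, *Elk3* and *Elk4* made up a list of 6 genes tested. With TMM, WT and KO each had 2 of them higher and 1 lower, and HZ had 2 higher and 4 lower. Among all genes, WT had 22.4% higher and 22.9% lower, HZ 32.9% and 31.6%, KO 20.4% and 20.5%. Library totals left WT and KO each with 0 of the 6 higher and 4 lower, and HZ with 1 higher and 4 lower. For all genes these shares were 6.90% and 60.6% (WT), 20.0% and 48.3% (HZ) and 7.03% and 59.8% (KO).

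Other genes of the pathway were counted by lists. The shares of all genes that were higher and lower, against which these counts are read, were 22.4% and 22.9% in WT, 32.9% and 31.6% in HZ, with 20.4% and 20.5% in KO with TMM, and 6.90% and 60.6%, 20.0% and 48.3% and 7.03% and 59.8% on library totals. Of 20 further MRTF and SRF targets tested, 8 higher and 5 lower were found after stimulation in WT, 8 higher and 8 lower in HZ and 5 higher and 5 lower in KO, with medians of 0.076, 0.024 and 0.027, and library totals gave 1 higher and 13 lower in WT, 5 higher and 9 lower in HZ, and 1 higher and 12 lower in KO. Of 28 genes of actin turnover, 19 higher and 2 lower were found in WT, 18 higher and 6 lower in HZ and 14 higher and 3 lower in KO, whereas library totals turned the split to 3 higher and 21 lower in WT, 7 higher and 16 lower in HZ, and 2 higher and 22 lower in KO. *Gsn*, encoding the filament-severing gelsolin, rose under both scalings, with 0.93 (SE 0.0263, adjusted p = 1.73e-32) in WT, 0.55 (SE 0.0262, adjusted p = 1.61e-23) in HZ and 1.03 (SE 0.0264, adjusted p = 2.52e-34) in KO by TMM. *Pfn1*, encoding the actin monomer-binding profilin, also rose under both, with TMM values of 0.47, 0.62 and 0.36.
By the annotation in the count table, 155 tested genes outside the 10 belong to the regulation of the actin cytoskeleton and 133 to focal adhesion. In WT 48 higher and 23 lower were found in the first and 49 higher and 18 lower in the second, with medians of 0.036 and 0.087, and on library totals 11 higher and 97 lower in the first, with 12 higher and 70 lower in the second. Unstimulated KO against WT gave 45 higher and 35 lower in the first list and 33 higher and 33 lower in the second, beside 22.9% and 21.7% of all genes. For HZ against WT the counts were 51 higher and 32 lower in the first and 44 higher and 30 lower in the second, beside 25.4% and 26% of all genes. *Itgb3*, the integrin beta-3 chain that vinculin-containing adhesions anchor, differed most in both lists, at 8.12 and 10.1 CPM in unstimulated WT, 75.4 and 78.1 in HZ, with 95.9 and 91.4 in KO, log2 differences of 3.07 (SE 0.0785, adjusted p = 1.01e-33) and 3.36 (SE 0.0777, adjusted p = 2.07e-35). In contrast, all 16 immediate-early genes rose in each genotype, with medians of 3.15 in WT, 5.06 in HZ and 3.73 in KO, and with the same count on library totals. The largest response among the members, that of *Fhl2*, lay below these medians.

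Across the 12 libraries the members fell into no single pattern, and the correlations that follow describe log2 CPM over libraries that share groups and scaling. *Actb* and *Actg1* moved together (Pearson r = 0.961), and each with *Flna* (r = 0.848 and 0.821). *Tpm4*, *Cnn2* and *Myh9* formed another group, with r between 0.880 and 0.917, and *Vcl* ran against all of them, with r from -0.914 for *Myh9* to -0.825 for *Cnn2*. Among all genes tested, the nearest pattern was *Kpna4* (r = 0.992) for *Actb*, *Fbxo33* (r = 0.995) for *Actg1*, *Vim* (r = 0.990) for *Flna* and *Hspa13* (r = 0.982) for *Fhl2*. It was *Nkpd1* (r = 0.990) for *Tpm4*, *Cd34* (r = 0.994) for *Cnn2*, *Fam124a* (r = 0.981) for *Myh9* and *Psen2* (r = 0.986) for *Vcl*. *Tpm1* came nearest to *Il1rl1* (r = 0.968) and *Zyx* to *Trp53inp2* (r = 0.938), the weakest match of the 10.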

How the data were processed

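RNA of BMMCs was sequenced in 12 libraries, 2 for each labelled genotype and state. Per the labels' processing notes, which give no versions, the authors used fastp, HISAT2 and HTSeq on GRCm39 and deposited a table of raw counts and a table of FPKM values for 16234 genes. No count normalisation had been applied to the deposited counts, and the deposited FPKM values scale them by gene length and library total. Whether counting used strand is not given in the sources used here. All 12 columns of each table were mapped to the labels, and columns not used numbered 0.

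Counts were tested with edgeR 4.0.16 in R 4.3.3 (filterByExpr, TMM factors, glmQLFit and glmQLFTest) in 1 model of 6 group means with Benjamini-Hochberg adjustment over the 12208 genes that passed the filter. The threshold was an adjusted p of 0.05, and intervals are 95% confidence intervals of the log2 difference. The biological coefficient of variation was 4.01%. Tests and intervals used 6 residual degrees of freedom plus 38.9 prior ones, which come from sharing the estimate of spread across genes. The script was tested on simulated data. Alternatives were DESeq2 1.42.0, its size factors, library totals, no filter on low counts, an adjusted p below 0.01, the compared groups only, replicate blocks, limma 3.58.1 on log2(FPKM + 1) and log2(FPKM + 0.1) of genes with a mean FPKM of at least 0.5, limma with no filter, and leaving out each library. At 29697958 to 35531667 counts per library, counting error limits chiefly *Tpm4* and *Fhl2*.

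The members, gene lists (SRF and its partners, further MRTF and SRF targets, actin turnover, immediate-early genes, reference genes, cell type markers and the table's pathway annotation) and tests were chosen with earlier results of these data known. Besides members, partners and reference genes, the text names at most the 3 genes of a list with the largest significant log2 fold change in a comparison and, in the higher of the groups, 100 counts or more on average, and the gene with the highest correlation to each member. Protein family totals were chosen after the values were seen. Some reference gene, list and family results are not reported here. Promoter windows came from RefSeq and transcripts from GENCODE.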

Additional observations from a re-analysis of the deposited data

Results flagged for a closer look

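The members below differed in their response between genotypes by the interaction test (edgeR's quasi-likelihood test, adjusted p below 0.05 over all genes tested), on the log2 scale. For KO minus WT these were *Actb*, -0.19 (SE 0.0280, adjusted p = 2.32e-06), and *Tpm1*, 0.22 (SE 0.0610, adjusted p = 0.0116). For HZ minus WT, *Flna*, *Actg1* and *Actb* responded more, with 0.77 (SE 0.0442, adjusted p = 1.41e-19), 0.16 (SE 0.0290, adjusted p = 1.44e-05) and 0.13 (SE 0.0280, adjusted p = 2.72e-04). *Tpm4*, *Vcl* and *Zyx* responded less, with -0.95 (SE 0.277, adjusted p = 0.00502), -0.43 (SE 0.0507, adjusted p = 1.12e-09) and -0.41 (SE 0.0441, adjusted p = 1.04e-10), as did *Cnn2* and *Tpm1*, with -0.29 (SE 0.0510, adjusted p = 6.29e-06) and -0.27 (SE 0.0608, adjusted p = 3.67e-04). *Vcl* and *Zyx* moved in opposite directions in WT and HZ with TMM, at 0.28 and -0.15 for *Vcl* and 0.29 and -0.12 for *Zyx*, whereas on library totals their WT values were -0.025 and -0.022. The difference of *Flna* lay in the unstimulated libraries, 299 and 275 CPM in HZ against 502 and 509 in WT, more than in the stimulated ones, 516 and 521 against 544 and 526.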

How the results depend on the processing

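Several response directions depended on the scaling. In comparisons between genotypes within a state, library totals left 57 of 60 member values on the same side of the threshold, 2 lost and 1 gained significance, and 0 of those past the threshold changed direction. Of 30 responses 19 stayed, 1 lost and 2 gained significance with the same sign, and 8 changed sign and passed under at least 1 scaling. Of these 8, *Tpm1* in HZ passed only on library totals. *Vcl* and *Zyx* in WT and *Actb* and *Zyx* in KO passed only with TMM. *Flna* in WT and KO and *Vcl* in KO passed in opposite directions under the 2 scalings. The counts of members that rose and fell became 3 and 3 in WT and 3 and 4 in KO, and 3 were higher in stimulated KO than in HZ. Of all genes, 6.9% rose and 60.6% fell in WT, 7.03% and 59.8% in KO, and 10.3% were higher in stimulated KO than in HZ. With limma the counts were 3 and 4 in WT on log2(FPKM + 1), 3 and 3 in WT on log2(FPKM + 0.1) or without the filter, 3 and 4 in KO, and 2 higher in stimulated KO than in HZ. In the filtered limma fits the median change of all genes was also below 0. It was -0.26 in WT and -0.25 in KO on log2(FPKM + 1), and -0.31 and -0.29 on log2(FPKM + 0.1). For the response difference of KO and WT limma gave 0 higher and 0 lower (without the filter 0 higher), and for HZ and WT 3 lower on log2(FPKM + 1) with or without the filter. The shares of all genes called in the limma fits are not reported here, so these member counts stand without a background. Values that reversed on library totals or with limma were as follows (log2). In the WT response *B2m* -0.15, *Flna* -0.23 or -0.22, *Gusb* -0.15 or -0.14, *Hprt* -0.090 or -0.087 or -0.088, *Ppia* -0.11 or -0.10, *Rplp0* -0.031, *Srf* -0.031 or -0.030, *Tpm3* -0.081 or -0.078 or -0.080, *Vcl* -0.025 or -0.024, *Zyx* -0.022 or -0.023. In the HZ response *Gusb* -0.034 or -0.032, *Sdha* -0.057 or -0.056, *Tpm1* -0.18. In the KO response *Actb* -0.016, *Elk4* -0.26 or -0.24, *Flna* -0.12, *Gapdh* -0.0066 or -0.0067 or -0.0068, *Gusb* -0.19 or -0.18, *Hprt* -0.22 or -0.21, *Pgk1* -0.079 or -0.078, *Ppia* -0.19, *Rplp0* -0.24, *Srf* -0.053 or -0.051, *Tpm3* -0.035, *Vcl* -0.15, *Zyx* -0.011 or -0.010.

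DESeq2, its size factors and an adjusted p below 0.01 each left 0 members lower in the WT response, and size factors gave 5 lower in unstimulated KO than in HZ. For the response difference of KO and WT, an adjusted p below 0.01 left 0 higher, and 2 were lower with no filter, with only the groups compared, with the replicate block and with the replicate block within genotype. Same-numbered libraries did not deviate together (r = -0.0226 in WT, 0.0629 in HZ and -0.0207 in KO over 9858 genes), so the numbers were not taken as pairs. The ranges that follow span the main fit and the fits that left out 1 library. In the WT response 0 to 1 were lower, the 1 in the main fit and 0 in each fit without a WT library. Unstimulated, 1 to 2 were higher in KO against WT and 3 to 5 lower in KO against HZ. Stimulated, 1 to 2 were higher in HZ against WT and 3 to 5 in KO against HZ. For the response difference of KO and WT, 0 to 1 were higher and 1 to 2 lower. Without HZ unstimulated replicate 2, *Myh9* passed in the HZ response at -0.065 (adjusted p = 0.0306) and in unstimulated KO against HZ at -0.086 (adjusted p = 0.00675), and without HZ unstimulated replicate 1 *Zyx* passed in unstimulated KO against HZ at -0.10 (adjusted p = 0.0200). The shares of all genes called under the settings of this paragraph are not reported here, so these member counts also stand without a background. The causes were not tested.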
